A study of Homo sapiens with 12 samples.

Results

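Genes of cellular iron transport and storage were followed in 3 human lung cancer cell lines given a hairpin against MARK2, whose signal fell in H1693 and H1993 and was not called lower in H1650. The set was named by gene symbol and lists 10 genes, SLC40A1, TFRC, SLC11A2, SLC39A14, STEAP1, FTL, FTH1, NCOA4, ACO1 and IREB2. Of these, 8 have a probe set with a single gene symbol in the platform annotation used here, out of 18132 genes named on the array, and FTH1 and IREB2 are not analysed here. The 8 genes are read by 30 of the 49395 probe sets, and all 8 passed the filter on dim signal. The list was chosen by name with the changes on these same arrays known, so those changes are given as a description of the genes, and a p-value below only sets a change against the spread between arrays.

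The groups were H1650, H1693 and H1993 cells transduced with a lentiviral short hairpin RNA against MARK2 (KD), each set against the same line with the empty pLKO vector (PLKO CONTROL), which carries no hairpin. These are established non-small cell lung cancer lines that the submitters chose for high MARK2, a kinase that phosphorylates microtubule-associated proteins. Each of the 6 groups has 2 arrays, labelled as biological replicates. The sources used here do not give the number of hairpins or the time after transduction. All 6 groups share the lentiviral transduction. In RNA from whole cultures, fewer cells of a kind and less RNA per cell cannot be told apart.

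Iron enters most cells bound to transferrin through the transferrin receptor TFRC, is reduced in the endosome by STEAP-family metalloreductases and crosses the endosomal membrane through SLC11A2 (DMT1), while SLC39A14 (ZIP14) carries iron not bound to transferrin. Surplus iron is stored in ferritin, built of the heavy chain FTH1 and the light chain FTL, and the receptor NCOA4 takes ferritin to the lysosome, where its iron is released. SLC40A1 (ferroportin) exports iron from the cell. The iron regulatory proteins ACO1 (IRP1) and IREB2 (IRP2) bind iron responsive elements in transcripts when iron is scarce, which protects TFRC mRNA from decay and blocks translation of ferritin and ferroportin. Much of that control acts on translation and protein, which these arrays do not measure.

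Values are the authors' log2 signals per probe set, so a difference of 1 is a 2-fold difference in signal. A gene with several probe sets was read from the brightest of them, and calls are limma adjusted p-values under 0.05 over 16205 genes. MARK2 was at 6.77 ± 0.01 in H1993 KD and 9.12 ± 0.08 in H1993 PLKO CONTROL arrays (SD, n = 2 each), and at 6.60 ± 0.04 in H1693 KD and 7.86 ± 0.15 in H1693 PLKO CONTROL arrays. In H1650 it was at 5.65 ± 0.38 in KD and 5.94 ± 0.19 in PLKO CONTROL arrays, which overlapped (difference -0.29, limma adjusted p = 0.156). Both H1650 means lie near the log2 floor of 5, where differences are compressed, so these arrays do not settle whether MARK2 fell there. The RNA of H1650 also stood apart: the signal at the 3' end minus that at the 5' end of GAPDH was 6.87 and 6.77 (log2) in H1650 KD and 2.28 and 3.07 in H1650 PLKO CONTROL arrays, against -0.12 to 0.02 over the other 8 arrays. This measure moved with the hairpin in H1650, and its part in the H1650 changes was not tested. All 6 epithelial markers examined reached the log2 floor of 5 on every array, as did 3 of 3 endothelial, 2 of 2 erythroid, 2 of 4 leukocyte and 2 of 4 fibroblast markers, so reaching the floor does not set cell types apart here. PTPRC of the leukocyte list and DCN of the fibroblast list lay below it on every array, while CD68 reached 11.6 and COL1A1 reached 10.5. The epithelial keratin KRT8 was at 7.19 in H1650 KD and 11.7 in H1650 PLKO CONTROL arrays (means of 2). The other epithelial markers moved less there. In the same order of groups, EPCAM was at 13.1 and 12.6, CDH1 at 13.83 and 13.80, and KRT7 at 14.0 and 14.3. KRT18 was at 13.9 and 14.8, and KRT19 at 14.2 and 14.4. The fibroblast marker LUM was at 5.74 in H1993 KD and 3.74, under the floor, in H1993 PLKO CONTROL arrays. In H1693 LUM was at 11.9 in KD and 10.9 in PLKO CONTROL arrays. COL1A1 was at 8.70 in H1993 KD and 8.11 in H1993 PLKO CONTROL arrays, and at 10.5 in H1693 KD and 9.85 in H1693 PLKO CONTROL arrays. COL1A2 was at 5.51 in H1993 KD and 5.63 in H1993 PLKO CONTROL arrays, and at 5.44 in both groups of H1693. DCN was at 4.21 in H1993 KD and 4.22 in H1993 PLKO CONTROL arrays, and at 4.35 and 4.39 in H1693. LUM and COL1A1 thus stood higher in KD arrays of H1993 and H1693, whereas COL1A2 and DCN did not. The summed log2 signal of the 4 fibroblast markers ran from 22.7 to 32.2 over KD and from 21.6 to 30.7 over PLKO CONTROL arrays, and its part in the iron gene changes was not tested.

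SLC40A1, the iron exporter, rose in all 3 lines and had the largest change of the 8 genes in H1693 and H1993. In H1993 KD arrays it was at 8.94 and 8.96, against 6.34 and 6.33 in H1993 PLKO CONTROL arrays. The groups lay far apart, and the difference of 2.62 (SE 0.08, limma adjusted p = 2.42e-07) is a 6.15-fold higher signal. In H1693 it was at 8.68 and 8.84 in KD and at 7.76 and 7.71 in PLKO CONTROL arrays, a rise of 1.03 (SE 0.08, limma adjusted p = 1.66e-05) or 2.04-fold. The H1650 values were low in both groups, 5.14 and 5.12 in KD and 4.95 and 4.76 in PLKO CONTROL arrays. Both H1650 control arrays were under the log2 floor of 5, where differences are compressed, and the rise of 0.27 (SE 0.08, limma adjusted p = 0.0173) was 0.26 (adjusted p = 0.0642) without H1650 KD replicate 1, 0.17 (adjusted p = 0.131) without H1650 PLKO CONTROL replicate 2 and 0.12 (adjusted p = 0.163) after a further quantile normalisation of the tested genes.

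The other SLC40A1 probe set gave the same order. Its KD minus PLKO CONTROL difference was largest in H1993 at 2.88, and it was 1.36 in H1693 and 0.82 in H1650. In H1993 its arrays were at 9.23 and 8.79 in KD and at 6.003 and 6.243 in PLKO CONTROL cells. The rise of SLC40A1 was larger in H1993 than in H1693 by 1.60 (SE 0.11, limma adjusted p = 2.41e-05). The KD arrays of both lines ended close together, at means of 8.95 in H1993 and 8.76 in H1693, whereas the PLKO CONTROL means were 6.33 in H1993 and 7.74 in H1693.

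TFRC, the receptor for transferrin-bound iron, fell in H1693 and was not called in H1993 or H1650. In H1693 it was at 12.73 and 12.71 in KD and at 13.37 and 13.32 in PLKO CONTROL arrays. The difference of -0.62 (SE 0.06, limma adjusted p = 6.61e-05) left 64.9% of the control signal. In H1993 it was at 13.24 and 13.16 in KD and at 13.03 and 13.06 in PLKO CONTROL arrays, a difference of 0.16 (SE 0.06, adjusted p = 0.0865) with no overlap. That difference passed after quantile normalisation (0.17, adjusted p = 0.0399) and with an intensity trend in the variances (adjusted p = 0.00798). In H1650 the KD arrays, 13.88 and 13.84, overlapped the PLKO CONTROL arrays, 13.80 and 13.86. The change in H1993 was higher than that in H1693 by 0.78 (SE 0.09, limma adjusted p = 0.000307).

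All 3 TFRC probe sets fell in H1693, by 0.62, 0.79 and 1.03, and the dimmest fell most. In H1993 the 3 differences were 0.16, 0.12 and 0.05, and in H1650 they were 0.03, -0.02 and -0.18.

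In H1693, signal of the exporter was higher and that of the transferrin receptor lower in KD arrays, while in H1993 the rise of the exporter was larger and the receptor was not called. The 250 bases before the annotated start of each of these 2 genes are shown to set their promoters side by side (RefSeq, GRCh38.p14, minus strand of chr2:189580787-189581036 for SLC40A1 and of chr3:196082091-196082340 for TFRC, each written 5′ to 3′ in the direction of transcription). Capitals mark matches, on either strand, to 5 short motifs: the GC box GGGCGG, the TATA box core TATAA, the hypoxia response core ACGTG, the E-box CACGTG, which contains that core, and the cAMP response core TGACG.
SLC40A1: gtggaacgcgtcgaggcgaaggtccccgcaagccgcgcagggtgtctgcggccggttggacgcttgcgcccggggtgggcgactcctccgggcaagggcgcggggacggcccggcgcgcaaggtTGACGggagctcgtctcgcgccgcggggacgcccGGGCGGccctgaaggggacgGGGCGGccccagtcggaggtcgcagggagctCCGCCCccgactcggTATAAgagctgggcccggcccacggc
TFRC: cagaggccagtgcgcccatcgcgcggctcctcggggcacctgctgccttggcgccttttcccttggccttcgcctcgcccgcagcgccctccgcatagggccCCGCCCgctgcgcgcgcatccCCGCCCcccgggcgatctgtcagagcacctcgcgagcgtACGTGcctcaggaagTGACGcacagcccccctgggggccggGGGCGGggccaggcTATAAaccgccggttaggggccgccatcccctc

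Both windows are rich in G and C, at 77.2% for SLC40A1 and 74.4% for TFRC, and each holds 3 GC boxes, 1 TATAA and 1 TGACG. The TATAA begins 26 bases before the start of SLC40A1 and 33 bases before that of TFRC. Only the TFRC window of these 2 holds ACGTG, 88 bases before the start, and neither holds CACGTG. Over 35116 windows of this length in the same table, 42.6% hold GGGCGG, 18.9% TATAA, 18.5% ACGTG, 6.3% CACGTG and 21.2% TGACG. These matches describe letters only.

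SLC11A2, which carries ferrous iron out of the endosome, rose in H1993 and H1693. In H1993 it was at 8.90 and 8.84 in KD and at 8.16 and 8.17 in PLKO CONTROL arrays, a rise of 0.71 (SE 0.07, limma adjusted p = 3.71e-05). In H1693 it was at 10.13 and 10.16 in KD and at 9.68 and 9.64 in PLKO CONTROL arrays, a rise of 0.48 (SE 0.07, limma adjusted p = 0.000402). Neither line's groups overlapped, and the difference of 0.22 between the rises of H1993 and H1693 did not pass (SE 0.09, adjusted p = 0.122). In H1650 it was at 9.29 and 9.16 in KD and at 9.30 and 9.29 in PLKO CONTROL arrays, with no call.

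The probe sets of SLC11A2 moved alike in H1693 and apart in H1650. Of its 6 probe sets 2 stayed under the floor, and the other 4 changed by 0.47 to 0.80 in H1693 and by 0.25 to 0.71 in H1993. In H1650 the 4 ran from -0.21 to 0.77, and 2 of them were called higher, at 0.77 and 0.64. Averaged over all 6 probe sets, the change was 0.29 in H1993 and 0.16 in H1650 (limma adjusted p = 0.0427), so the direction in H1650 depends on the probe set read.

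SLC39A14, an importer of iron that is not bound to transferrin and also of zinc and manganese, was called on its brightest probe set in H1650 and not in H1693 or H1993. In H1650 it was at 13.08 and 12.91 in KD and at 12.59 and 12.63 in PLKO CONTROL arrays, a rise of 0.39 (SE 0.08, limma adjusted p = 0.00298) in the line whose RNA integrity differed between the groups. In H1693 the difference was 0.15 (adjusted p = 0.202) and in H1993 it was 0.18 (adjusted p = 0.14). The test for a difference between the 3 lines did not pass (F test, adjusted p = 0.196), so the lines are not shown to differ. A dimmer probe set of the gene was at 8.11 and 8.35 in H1693 KD, against 7.85 and 7.79 in H1693 PLKO CONTROL arrays, and that rise of 0.41 was called in the fit of all probe sets (limma adjusted p = 0.0463).

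STEAP1 belongs to the STEAP metalloreductases but lacks the domain that binds NADPH in its relatives. It rose in H1650 and H1993. In H1650 it was at 10.31 and 10.24 in KD and at 9.15 and 9.18 in PLKO CONTROL arrays, a rise of 1.11 (SE 0.07, limma adjusted p = 1.53e-06) or 2.16-fold. In H1993 it was at 11.99 and 11.88 in KD and at 11.30 and 11.35 in PLKO CONTROL arrays, a rise of 0.61 (SE 0.07, limma adjusted p = 0.000125) or 1.52-fold. H1693 differed: its KD arrays, 11.62 and 11.65, lay just under its PLKO CONTROL arrays, 11.72 and 11.82, with no call (-0.14, adjusted p = 0.173). The change in H1993 exceeded that in H1693 by 0.74 (SE 0.10, limma adjusted p = 7e-04). The gene's other probe set with a single symbol stayed under the floor of 5 on every array, and with it averaged in the rises were 0.73 in H1650 and 0.35 in H1993.

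**Figure D1:**
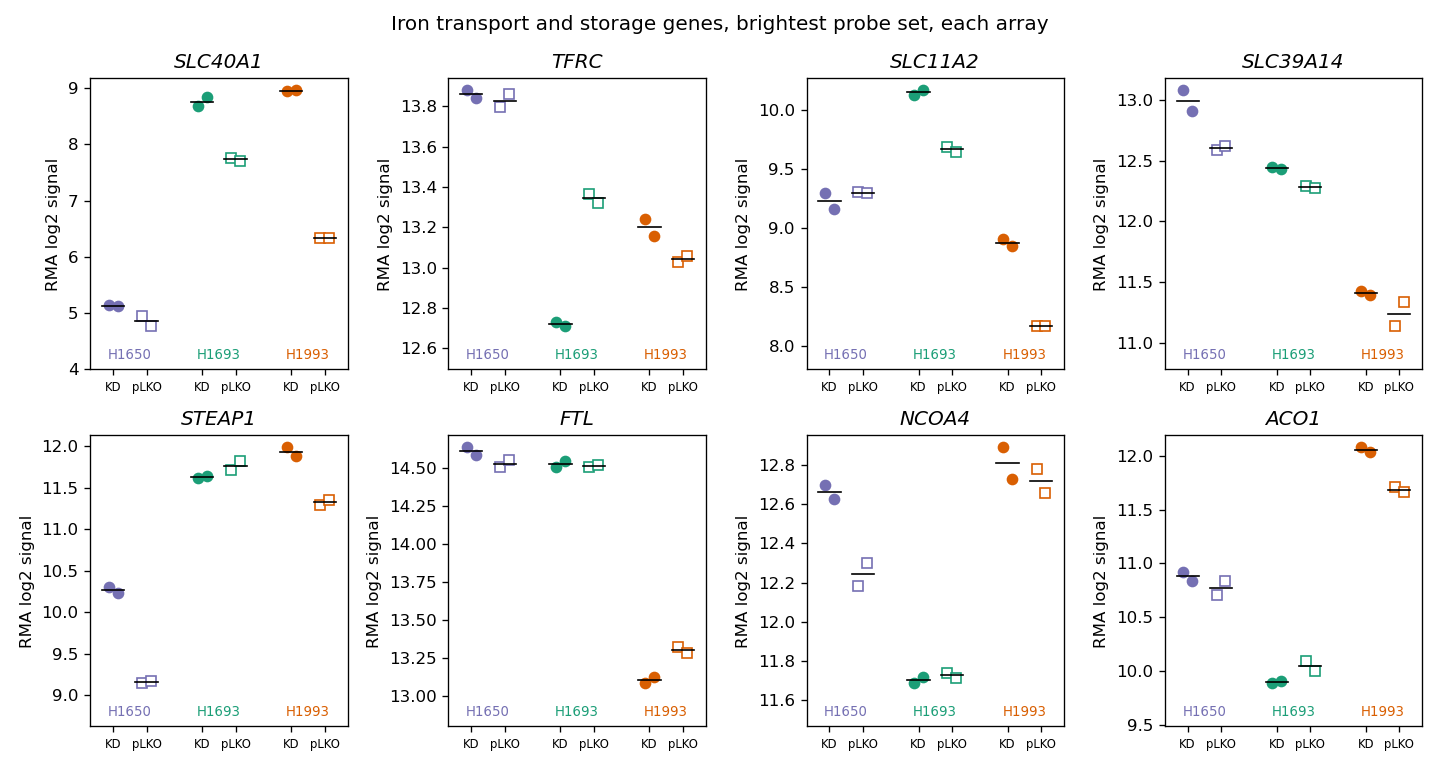
RMA log2 signal of the brightest probe set of each of the 8 genes on each of the 12 arrays (vertical axes, which differ between panels and do not start at 0); filled circles are KD arrays, open squares pLKO control arrays, and black lines group means. SLC40A1 lies higher in KD arrays of all 3 lines, TFRC lies lower in H1693 KD arrays, and FTL is near 14.5 in H1650 and H1693 and near 13.2 in H1993.

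The ferritin light chain FTL changed little on its brightest probe set, and its probe sets came apart in H1650. In H1993 it was at 13.08 and 13.12 in KD and at 13.32 and 13.28 in PLKO CONTROL arrays, a fall of 0.20 on the log2 scale (SE 0.06, limma adjusted p = 0.0274). The call was lost without any 1 of the 4 H1993 arrays, with values from -0.22 to -0.18 and adjusted p from 0.0651 to 0.129, and with replicate number as a block (adjusted p = 0.0845). In H1693 FTL was at 14.50 and 14.54 in KD and at 14.51 and 14.52 in PLKO CONTROL arrays, which overlapped. In H1650 it was at 14.64 and 14.59 in KD and at 14.51 and 14.55 in PLKO CONTROL arrays, a difference of 0.08 (adjusted p = 0.269). Values near 14.5 lie close to the highest signal on the arrays, 15.2, where differences are also compressed.

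FTL is read by 8 probe sets. In H1693 their changes ran from -0.04 to 0.03 and in H1993 from -0.37 to -0.14, all below 0. In H1650 the 4 brightest changed by 0.06 to 0.14 and the other 4 by -0.41, -1.74, -3.24 and -3.61. The last of these was at 9.84 and 10.38 in H1650 KD and at 13.80 and 13.64 in H1650 PLKO CONTROL arrays. These lower readings stand beside the 3' minus 5' difference of GAPDH in the same arrays, and the position of the probe sets along the transcript was not used here. Names of the 4 brightest FTL probe sets end in s_at and those of the other 4 in x_at, so brightness and probe set class go together. The part of either was not tested. The mean over the 8 probe sets changed by -1.08 in H1650 (limma adjusted p = 5.19e-07), the opposite sign to the brightest probe set.

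**Figure D2:**
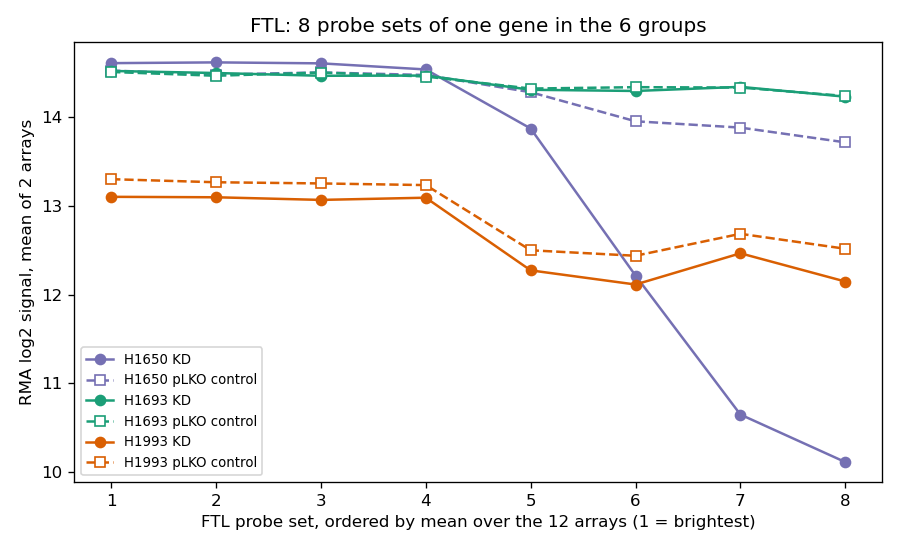
Mean RMA log2 signal of 2 arrays (vertical axis) for the 8 FTL probe sets ordered by their mean over the 12 arrays (horizontal axis), in KD (filled circles, solid lines) and pLKO control (open squares, dashed lines) groups of each line. The groups of H1693 overlie each other, KD lies below control for each probe set in H1993, and in H1650 KD the last 4 probe sets fall away from the control.

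NCOA4, the cargo receptor that delivers ferritin to lysosomes, was called in H1650 with probe sets of opposite sign. Its brightest was at 12.70 and 12.63 in H1650 KD and at 12.18 and 12.30 in H1650 PLKO CONTROL arrays, a rise of 0.42 (SE 0.08, limma adjusted p = 0.00138). The other was at 6.54 and 6.73 in H1650 KD and at 8.66 and 8.58 in H1650 PLKO CONTROL arrays, a difference of -1.98. No direction of NCOA4 in H1650 can be given from these readings. In H1693 the KD arrays, 11.69 and 11.72, overlapped the PLKO CONTROL arrays, 11.74 and 11.72, and in H1993 the KD arrays, 12.89 and 12.73, overlapped the PLKO CONTROL arrays, 12.78 and 12.66.

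ACO1, an enzyme of citrate metabolism that binds iron responsive elements when it lacks its iron-sulfur cluster, rose in H1993. It was at 12.08 and 12.03 in H1993 KD and at 11.71 and 11.66 in H1993 PLKO CONTROL arrays, a rise of 0.37 (SE 0.07, limma adjusted p = 0.00264). In H1693 it was at 9.89 ± 0.01 in KD and 10.05 ± 0.06 in PLKO CONTROL arrays (SD, n = 2 each), a difference of -0.15 (limma adjusted p = 0.139) with no overlap. In H1650 the difference was 0.11 (adjusted p = 0.228). The change in H1993 was above that in H1693 by 0.52 (SE 0.10, limma adjusted p = 0.00498). Its 3 probe sets gave 0.25 to 0.37 in H1993, but -0.56, -0.15 and 0.33 in H1693, where the dimmest was under the floor in both groups.

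Counted over the 8 genes by their brightest probe sets, 4 were called higher and none lower in H1650. Of all genes tested, 36.7% were called higher and 16.7% lower there. NCOA4 is among the 4, although its other probe set was lower (-1.98). FTL is not called in this count, although 4 of its 8 probe sets were called lower. In H1693 2 rose and 1 fell, beside 17.1% of all genes higher and 15.9% lower, and in H1993 4 rose and 1 fell, beside 18.9% higher and 14.5% lower. The median change of the 8 genes against that of all genes tested was 0.19 against 0.15 in H1650, -0.01 against -0.02 in H1693 and 0.27 against 0.02 in H1993. Quantile normalisation of the tested genes moved the median of all genes in H1650 to 0.04, with 4737 genes higher and 3468 lower against 5954 and 2702 before it, and left 3 of the 8 called higher. SLC40A1 was the single member called higher in all 3 lines before that normalisation. Its H1650 call, with control arrays under the floor, was lost after it (0.12, limma adjusted p = 0.163).

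**Figure D3:**
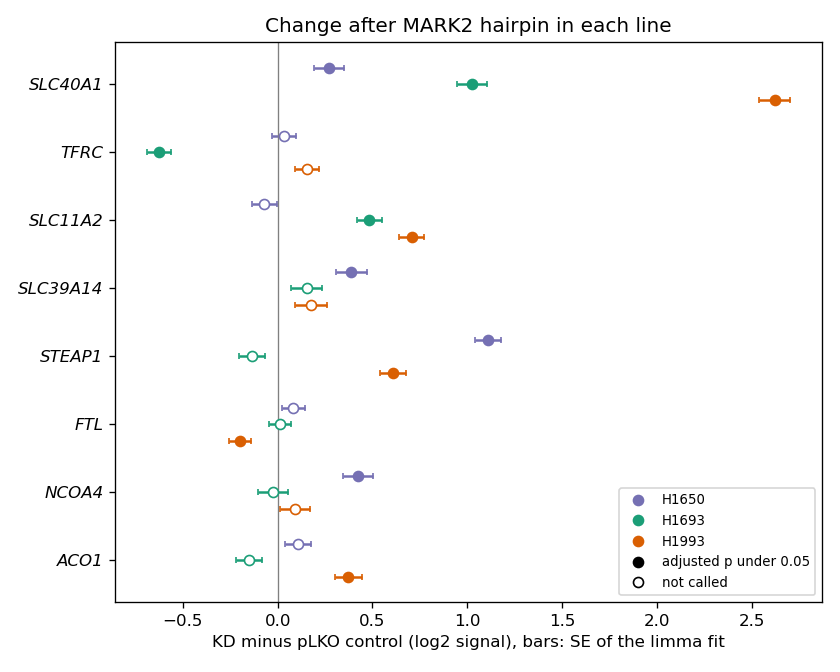
KD minus pLKO control (log2 signal, horizontal axis) of the brightest probe set of the 8 genes in each line, with bars for the SE of the limma fit; filled points have an adjusted p under 0.05 over all genes. SLC40A1 reaches 2.62 in H1993 and 1.03 in H1693, TFRC is at -0.62 in H1693, and STEAP1 is at 1.11 in H1650 and 0.61 in H1993.

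By single probe sets, 26 of the 30 passed the filter. In H1650 9 were called higher and 5 lower, beside 30.0% higher and 21.3% lower among 38924 probe sets tested. In H1693 8 were higher and 4 lower, beside 15.7% and 13.4%, and in H1993 8 were higher and none lower, beside 15.0% and 13.7%. The 4 lower calls in H1693 were the 3 probe sets of TFRC and 1 of ACO1, and the 5 in H1650 were 4 of FTL and 1 of NCOA4. The spread between probe sets of a gene was widest in H1650, where it reached 3.75 for FTL and 2.402 for NCOA4, against at most 0.89 in H1693 and 0.46 in H1993.

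**Figure D4:**
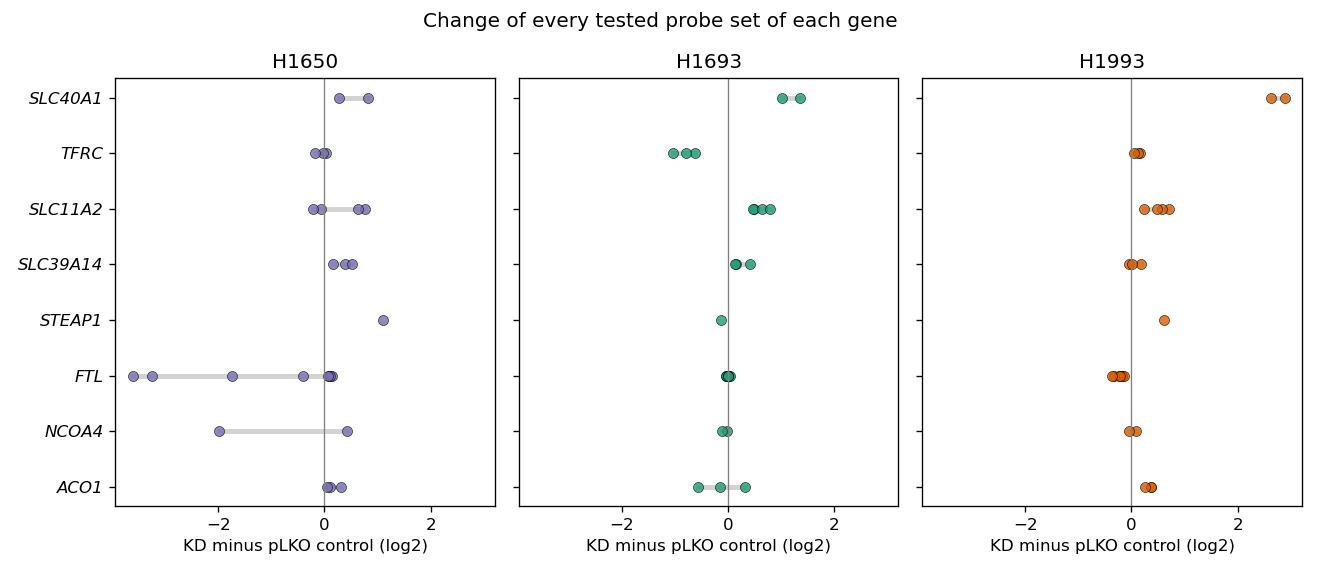
KD minus pLKO control (log2 signal, horizontal axes) of each of the 26 tested probe sets, by gene and line; each point is 1 probe set and the grey bar spans a gene's probe sets. FTL runs from -3.61 to 0.14 and NCOA4 from -1.98 to 0.42 in H1650, while the SLC40A1 probe sets lie between 2.62 and 2.88 in H1993.

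The KD minus PLKO CONTROL change differed between the 3 lines for 7 of the 8 genes by the F test, beside 54.9% of all genes tested, SLC39A14 being the exception. Leaving out H1650 KD replicate 1 or H1650 PLKO CONTROL replicate 1 brought this to 5. Between H1993 and H1693, the lines without the RNA integrity difference, it differed for 4 of 8, SLC40A1, TFRC, STEAP1 and ACO1, beside 22.1% of all genes. In each of these 4 the change in H1993 was the higher. SLC11A2, NCOA4 and FTL passed the F test but not this comparison (limma adjusted p = 0.122, 0.531 and 0.109). Their F results thus draw on the H1650 change, which carries the RNA integrity difference.

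Levels in PLKO CONTROL arrays differed between the lines for most of the 8 genes, as they did for most genes on the array. Control arrays of H1993 and H1693 differed in all 8, beside 63.0% of all genes tested, with NCOA4 and ACO1 higher and the other 6 lower in H1993. Between H1993 and H1650 controls all 8 differed, beside 63.8%, with SLC40A1, STEAP1, NCOA4 and ACO1 higher in H1993. Between H1650 and H1693 controls 7 differed, beside 63.0%, with TFRC, SLC39A14, NCOA4 and ACO1 higher and SLC40A1, SLC11A2 and STEAP1 lower in H1650. After quantile normalisation the genes higher and lower in H1993 than in H1650 controls were 5857 and 5139, against 3842 and 6492 before it, and those higher and lower in H1650 than in H1693 controls were 4990 and 5325, against 6233 and 3969. Among the 8 genes it took away the call of SLC39A14 between H1650 and H1693 (0.17, limma adjusted p = 0.0789). These comparisons use the same control arrays as the KD minus PLKO CONTROL changes, and comparisons with H1650 controls also carry their 3' minus 5' difference.

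The exporter SLC40A1 had the widest range over the control arrays. It was lowest in H1650 at 4.86 ± 0.14, higher in H1993 at 6.33 ± 0.01 and highest in H1693 at 7.74 ± 0.03 (SD, n = 2 each), and each step passed the test. H1993 lay below H1693 by 1.40 (SE 0.08, limma adjusted p = 1.16e-07), and H1650 lay below H1693 by 2.88 (limma adjusted p = 9.44e-10). STEAP1 kept that order of lines, at 9.16 ± 0.02 in H1650, 11.32 ± 0.04 in H1993 and 11.77 ± 0.07 in H1693, and its difference between H1993 and H1693 fell short of the threshold with the dim probe set averaged in (-0.16, limma adjusted p = 0.217).

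Control FTL was low in H1993 at 13.30 ± 0.03, against 14.53 ± 0.03 in H1650 and 14.51 ± 0.01 in H1693. The difference of -1.21 between H1993 and H1693 (SE 0.06, limma adjusted p = 3.65e-08) is given without a fold, since the H1693 signal lies close to the top of the scale, while H1650 and H1693 overlapped (0.02, adjusted p = 0.833). SLC11A2 on its brightest probe set was also lowest in H1993, at 8.17 ± 0.0025, against 9.30 ± 0.0030 in H1650 and 9.66 ± 0.03 in H1693. Its H1993 minus H1650 difference was -1.13 there and -0.31 averaged over all its probe sets. Another probe set was lowest in H1650, at 7.86 against 7.91 in H1993, while the remaining tested ones were lowest in H1993. ACO1 was instead highest in H1993, at 11.68 ± 0.03, against 10.77 ± 0.09 in H1650 and 10.05 ± 0.06 in H1693. H1993 exceeded H1693 by 1.64 (SE 0.07, limma adjusted p = 1.38e-08). NCOA4 was at 12.72 ± 0.09 in H1993, 12.24 ± 0.08 in H1650 and 11.73 ± 0.02 in H1693.

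For TFRC and SLC39A14 the control order also depended on the probe set. The brightest TFRC probe set was at 13.83 ± 0.05 in H1650, 13.34 ± 0.03 in H1693 and 13.04 ± 0.02 in H1993, so H1650 exceeded H1693 by 0.48 (limma adjusted p = 6.37e-05). Averaged over the 3 probe sets, that difference was -0.44 (limma adjusted p = 8.46e-05), and that between H1993 and H1650 was -0.065 (limma adjusted p = 0.384). SLC39A14 on its brightest probe set was at 12.61 ± 0.03 in H1650, 12.29 ± 0.01 in H1693 and 11.23 ± 0.14 in H1993, and averaged over 4 probe sets H1650 lay below H1693 (-0.53). NCOA4 likewise changed sign between H1650 and H1693, from 0.51 on the brightest to -0.24 over both probe sets.

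Beyond the 10 named genes, 104 other genes of iron and heme handling were listed, of which 92 were tested. In H1993 21 were higher and 17 lower (18.9% and 14.5% of all genes tested), in H1693 17 and 17 (17.1% and 15.9% of all genes), and in H1650 36 and 20 (36.7% and 16.7% of all genes). The counts by role below are to be set against these same shares, and with groups of 4 to 20 genes they are given as descriptions. Their median change was 0.02 in H1993, -0.01 in H1693 and 0.10 in H1650, close to the all-gene medians above. The H1993 count of 38 fell when any single H1993 array was left out, and so did the H1993 count over all genes tested. Among the genes of this list, the ferrireductases and ferroxidases had 4 of 11 higher and none lower in H1993, 4 higher and 1 lower in H1693, and 6 higher and 2 lower in H1650, where 18.9%, 17.1% and 36.7% of all genes were higher in the same order of lines.

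Of the STEAP family, STEAP2 and STEAP4 are full metalloreductases. Among protein-coding genes STEAP2 is the neighbour of STEAP1 on chromosome 7 in RefSeq GRCh38.p14. STEAP4 was at 10.05 and 9.86 in H1993 KD and at 7.79 and 7.72 in H1993 PLKO CONTROL arrays, a rise of 2.19 (SE 0.11, limma adjusted p = 1.07e-06) or 4.58-fold. It also rose in H1693, by 1.01 (adjusted p = 9.26e-05), with control arrays under the floor of 5, and in H1650, by 0.52 (adjusted p = 0.00251). STEAP2 was at 10.86 and 10.69 in H1993 KD and at 9.58 and 9.52 in H1993 PLKO CONTROL arrays, a rise of 1.23 (SE 0.09, limma adjusted p = 7.82e-06). In H1650 STEAP2 rose by 1.32 (adjusted p = 2.02e-06) and in H1693 by 0.28 (adjusted p = 0.0307). CYB561D2, in the list of ferrireductases and ferroxidases but not a STEAP gene, went the other way. It was lower in H1650 KD (-0.89, limma adjusted p = 2.65e-05) and H1693 KD arrays (-0.48, adjusted p = 0.00227). In H1993 it was not called (-0.02, adjusted p = 0.889).

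Of 8 other uptake genes, 2 rose and 2 fell in H1993, 1 rose and 2 fell in H1693, and 2 rose and 2 fell in H1650. LCN2, which binds iron-laden siderophores, rose by 1.29 in H1993 and by 0.79 in H1693 and fell by 0.99 in H1650 (limma adjusted p = 5.43e-06, 9.4e-05 and 1.01e-05). Its H1693 PLKO CONTROL arrays, 5.01 and 4.89, were at the floor, where differences are compressed. TFR2, a transferrin receptor known for iron sensing in liver, fell by 1.11 in H1693 and by 1.01 in H1650, and was at 0.10 in H1993 (adjusted p = 0.718). HFE, a partner of the transferrin receptor, fell by 0.84 in H1993 (adjusted p = 0.000173).

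Genes of heme synthesis split, with 2 higher and 2 lower of 10 in H1993, 3 and 2 in H1693, and 5 and 1 in H1650. CPOX, a mitochondrial enzyme of the pathway, fell by 0.98 in H1693 and by 0.63 in H1993 and rose by 0.42 in H1650. Of 11 genes of heme transport and breakdown, 6 rose and 1 fell in H1993, 3 rose and 1 fell in H1693, and 5 rose and 3 fell in H1650. FLVCR2 rose by 1.06 in H1993, and the heme exporter FLVCR1 fell by 0.76 in H1693 and rose by 0.28 in H1993 and by 0.61 in H1650. HMOX1, the inducible heme oxygenase that frees iron from heme, was at 7.69 ± 0.20 in H1650 KD and 9.20 ± 0.06 in H1650 PLKO CONTROL arrays. It fell by 1.51 there, in the line whose RNA integrity differed between the groups. In H1993 HMOX1 fell by 0.43 (limma adjusted p = 0.0212), and in H1693 it was not called (-0.14, limma adjusted p = 0.433).

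Of 20 genes of mitochondrial iron and iron-sulfur clusters, 2 rose and 8 fell in H1993, 2 rose and 6 fell in H1693, and 8 rose and 4 fell in H1650, where 14.5%, 15.9% and 16.7% of all genes were lower in the same order of lines. SFXN1, a mitochondrial carrier, fell by 0.51, 0.73 and 0.29 in H1993, H1693 and H1650. SLC25A37 (mitoferrin-1), an importer of iron into mitochondria, rose by 0.42, 0.59 and 0.48 in the same lines, and in H1693 it was at 0.13 (adjusted p = 0.186) when its probe sets were averaged. Cytosolic iron-sulfur assembly had 1 of 8 higher and 1 lower in H1993, 1 and 3 in H1693, and 2 and 5 in H1650. Iron sensing and the hepcidin axis had 2 of 11 higher and 2 lower in H1993, 2 and none in H1693, and 5 and none in H1650. Of the iron storage genes and chaperones, 2 of 9 rose and 1 fell in H1993, 1 rose and 2 fell in H1693, and 3 rose and 2 fell in H1650. Of 4 other transcripts with an iron responsive element, none was called in H1993 or H1693 and CDC42BPA fell by 0.36 in H1650, with an adjusted p from 0.0638 to 0.175 when H1650 KD replicate 2 or either H1650 PLKO CONTROL array was left out.

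The profiles most like that of SLC40A1 over the 12 arrays, by mean absolute difference of centred log2 signal, were those of SLC44A5 (0.41), LGSN (0.45) and UGCG (0.48), where SLC40A1 itself deviated from its mean by 1.52 on average. KD minus PLKO CONTROL of SLC44A5 was 1.09 in H1993 and 1.22 in H1693, and in H1650 it was -0.29. In the same order of lines it was 1.32, 1.09 and -0.07 for LGSN, and 0.35, 0.72 and 0.57 for UGCG. For TFRC, which deviated by 0.35, the closest were FARSB, MSH6 and DCAF1, each at 0.09. For MSH6 the difference was -0.68 in H1693, while H1993 had 0.15 and H1650 had 0.13. In the same order of lines it was -0.41, 0.06 and -0.09 for FARSB, and -0.47, 0.14 and 0.09 for DCAF1.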

How the data were processed

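Total RNA was labelled as biotinylated cRNA and hybridised to Affymetrix arrays, 1 per sample. The authors deposited 1 log2 signal for each probe set and array, and the submitters' processing notes name Affymetrix Expression Console and RMA without versions. Probe sets with 1 gene symbol in the platform annotation (44988, without the 102 control probe sets) were named through gene IDs in RefSeq GRCh38.p14. A probe set shared by STEAP1 and STEAP1B was not used. Genes needed 2 arrays at a log2 signal of 5. One mean per group was fitted over 12 arrays with limma 3.58.1 in R 4.3.3 (6 residual degrees of freedom, prior 3.52), two-sided, with Benjamini-Hochberg adjustment over all genes. The pipeline was tested on simulated data.

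Named genes are the 10 members, MARK2, per role group and line up to 2 other called iron genes with the largest changes and no overlap, and the 3 profiles closest to SLC40A1 and TFRC; not all are printed. Members and lists were chosen with earlier results of these data known. The number of arrays limits the precision. Array medians ran from 7.13 to 7.32, and replicate arrays correlated at 0.995 or more across probe sets with at most 0.0992% identical values. Same-numbered arrays did not deviate together in every line, so replicate numbers were left out of the fit.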

Additional observations from a re-analysis of the deposited data

Results flagged for a closer look

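The KD minus PLKO CONTROL change differed between the 3 lines (limma F test, adjusted over all genes) for SLC40A1 (adjusted p = 2.47e-06), STEAP1 (2.58e-05), TFRC (0.000146), SLC11A2 (0.000256), ACO1 (0.00468), NCOA4 (0.0168) and FTL (0.0382). With all probe sets of a gene averaged, the H1650 value changed sign for FTL (-1.08, limma adjusted p = 5.19e-07), NCOA4 (-0.78), SLC11A2 (0.16) and TFRC (-0.055).

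Between H1993 and H1693, tested as the difference of the 2 changes, SLC40A1 was higher in H1993 by 1.60 (limma adjusted p = 2.41e-05), TFRC by 0.78 (adjusted p = 0.000307), STEAP1 by 0.74 (adjusted p = 7e-04) and ACO1 by 0.52 (adjusted p = 0.00498). SLC40A1 was called higher in both lines. TFRC was called lower in H1693 and was not called in H1993 (0.16, limma adjusted p = 0.0865). STEAP1 was called higher in H1993 and was not called in H1693 (-0.14, limma adjusted p = 0.173). ACO1 was called higher in H1993 and was not called in H1693 (-0.15, limma adjusted p = 0.139), where its probe sets differed in sign.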

How the results depend on the processing

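Over 20 alternatives the count of the 8 genes called was 3 throughout in H1693, 3 to 6 in H1650 and 4 to 6 in H1993. Of 864 recomputed values for these genes, 836 kept their direction and side of the threshold, 12 lost and 2 gained a call, and 14 changed sign. Signs changed mostly when all probe sets of a gene were averaged. In H1650, KD minus PLKO CONTROL was then -1.08 for FTL, -0.78 for NCOA4, 0.16 for SLC11A2 and -0.055 for TFRC, and in H1693 it was -0.0050 for FTL. H1650 minus H1693 controls gave -0.44 for TFRC, -0.53 for SLC39A14, -0.17 for FTL and -0.24 for NCOA4, and H1993 minus H1650 controls gave 0.12 for SLC39A14. CIAO1 was at 0.19 in H1693 and 0.12 in H1993 and NDOR1 at -0.0011 in H1993. After quantile normalisation FTL was at -0.063 between H1650 and H1693 controls. The causes were not tested. Leaving out each array in turn, TFRC in H1650 ran from -0.00066 to 0.066, FTL in H1693 from -0.0078 to 0.031, and FTL between H1650 and H1693 controls from -0.0071 to 0.040. The wider iron genes called in H1993 ran from 23 to 39, which includes the effect of fewer arrays.

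Replicate numbers did not pair the arrays in every line. Same-numbered deviations correlated across genes at -0.11 in H1650 and -0.18 in H1693, but at 0.29 in H1993, where they moved together in part. With a replicate block 4, 3 and 4 of the 8 genes were called in H1650, H1693 and H1993, and with crossed numbers, chosen after seeing the data, also 4, 3 and 4. Fits on only the groups compared called 3, 3 and 4.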
